A study of Mus musculus with 15 samples.

Results

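The smooth muscle contractile genes of the gut wall are described here in the large intestine of mice: Acta2, Actg2, Myh11, Tagln, Cnn1, Des, Mylk, Myl9 and Smtn. The 9 genes were taken by name, and all 9 were among the 11505 genes tested, of 44049 with a value in any library. RNA sequencing covered 15 libraries of male C57Bl/6 mice aged 4 weeks, 3 libraries in each of 5 groups. Cymopol, a brominated hydroquinone known from a green alga, was dosed at 1.4 mmol/kg (high dose, replicates 11, 12 and 14) or 0.3 mmol/kg (low dose, replicates 33, 34 and 35). The extract, a non-polar one of algae, was dosed at 1.0 g/kg (high dose, replicates 21, 23 and 25) or 0.3 g/kg (low dose, replicates 26, 27 and 29). The control mice (replicates 2, 4 and 5) received the vehicle, Cremophor EL with 10% DMSO, in which the agents were dissolved. Dosing was by gavage once a day for 3 days, with tissue collected 12 h after the final one. The labels name no segment or layer of the intestine and do not say that each library is 1 mouse, so p-values measure only how these libraries vary, which may be technical. Values of a group are given in the order of these replicate numbers.

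Smooth muscle contracts when calcium binds calmodulin, which switches on myosin light chain kinase (Mylk). The kinase phosphorylates the regulatory light chain (Myl9) of smooth muscle myosin (heavy chain Myh11), and the motor then pulls on filaments of smooth muscle actin (Acta2, Actg2). Transgelin (Tagln), calponin (Cnn1) and smoothelin (Smtn) bind these actin filaments, and desmin (Des) forms the intermediate filaments that tie contractile units together. In the colon the proteins are known from the circular and longitudinal muscle layers, the muscularis mucosae and the walls of blood vessels. In a bulk tissue sample, fewer muscle cells and less RNA per muscle cell cannot be told apart.

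The libraries differed in depth and in RNA content. The files hold FPKM (fragments per kilobase, scaled to the library's total) and no counts. Fragments estimated from the FPKM intervals came to 25233 in vehicle replicate 5 and 556401 in extract high dose replicate 23 over protein-coding genes. Vehicle replicate 2 had 8.52% of its estimated fragments in genes and 46.8% in intergenic loci. Extract low dose replicate 26 had 33.3% in genes and 23.6% in intergenic loci. The epithelial markers Car1, Krt8, Krt19 and Lgals4, which line the colon, were above 0 in all 15 libraries. Of 9 skeletal muscle markers, 8 were at 0 in at least 11 libraries, Myh1 in all 15 and Myh2 in 11, while Ckm, the muscle creatine kinase, was above 0 in 12, with up to 16.3 FPKM (vehicle replicate 5). Each of the 9 smooth muscle genes was above 0 in all 15 libraries.

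Both actins of smooth muscle were among the most abundant transcripts of the tissue. Acta2 encodes the alpha actin of vascular and visceral muscle and lies at chr19:34241090-34255590 on the minus strand of GRCm38. Actg2 encodes the gamma actin of the gut wall and lies at chr6:83512905-83536265 on the minus strand. The first 90 coding bases of each are shown because the actins are close relatives whose reads must be told apart. Capitals mark bases that differ between the pair, among them the 3 bases of Acta2 that have no partner in Actg2.
Acta2: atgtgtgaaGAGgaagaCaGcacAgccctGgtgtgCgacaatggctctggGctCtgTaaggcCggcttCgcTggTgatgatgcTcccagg
Actg2: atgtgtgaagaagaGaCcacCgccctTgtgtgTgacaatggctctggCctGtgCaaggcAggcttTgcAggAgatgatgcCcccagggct
The coding sequences, 1131 and 1128 bases long in GENCODE M21, matched at 952 of 1131 aligned positions (84.2%). Of all stretches of 50 bases in the Acta2 transcript, 0.352% also occurred in transcripts of another gene, and for Actg2 none did.

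Acta2 had 143, 187 and 92.5 FPKM in the cymopol high dose, 104, 169 and 196 in the cymopol low dose, 94.5, 165 and 75.8 in the extract high dose, 7.33, 212 and 178 in the extract low dose, and 19.6, 140 and 58.2 in the vehicle. The groups overlapped: the highest library (212) and the lowest (7.33) both came from the extract low dose. The 212 rested on an estimated 107 fragments, with an FPKM interval of 171 to 252, and the 7.33 on 121 fragments. Group means were 141 ± 47.4 FPKM in the cymopol high dose, 156 ± 47.1 in the cymopol low dose, 112 ± 47.2 in the extract high dose, 132 ± 109 in the extract low dose and 72.6 ± 61.5 in the vehicle (SD, n = 3 each). Ranked by mean (cymopol low, cymopol high, extract low, extract high, vehicle), no neighbours were farther apart than the larger SD of the pair. The same held for the neighbours of each of the other 8 genes.

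Actg2 had 110, 213 and 95.3 FPKM in the cymopol high dose, 71.5, 52.5 and 138 in the cymopol low dose, 80.6, 125 and 42.6 in the extract high dose, 4.46, 69.7 and 141 in the extract low dose, and 9.40, 173 and 58.6 in the vehicle. Vehicle replicate 4 was above every treated library but one, cymopol high dose replicate 12, while vehicle replicate 2 was the second lowest of all. The ratio of Acta2 to Actg2 was 1.30, 0.878 and 0.971 at the high dose of cymopol, against 1.45, 3.22 and 1.41 at the low dose, so the doses did not overlap in this ratio of FPKM. It was 1.17, 1.33 and 1.78 in the extract high dose, 1.64, 3.03 and 1.26 in the extract low dose and 2.08, 0.811 and 0.992 in the vehicle, a range that spans both cymopol groups apart from the highest value. In vehicle replicates 2 and 4, 52.9% and 30.9% of the fragments at the Actg2 locus lay in assembled pieces left out of its value. For Acta2 these shares were 0% and 4.34%, so the vehicle range of the ratio depends on those pieces. The 3.22 of cymopol low dose replicate 34 rested on an estimated 38.5 fragments of Acta2 and 45.7 of Actg2. In the cymopol high dose these were 1013 and 517, 845 and 549, and 477 and 338. In fragments Acta2 was thus below Actg2 in that low dose library and above it in the high dose. The separation of the cymopol doses therefore did not hold in fragments. The 3.03 of extract low dose replicate 27 rested on 107 and 184 fragments. The ratio was picked after its values were seen and was not tested.

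**Figure D1:**
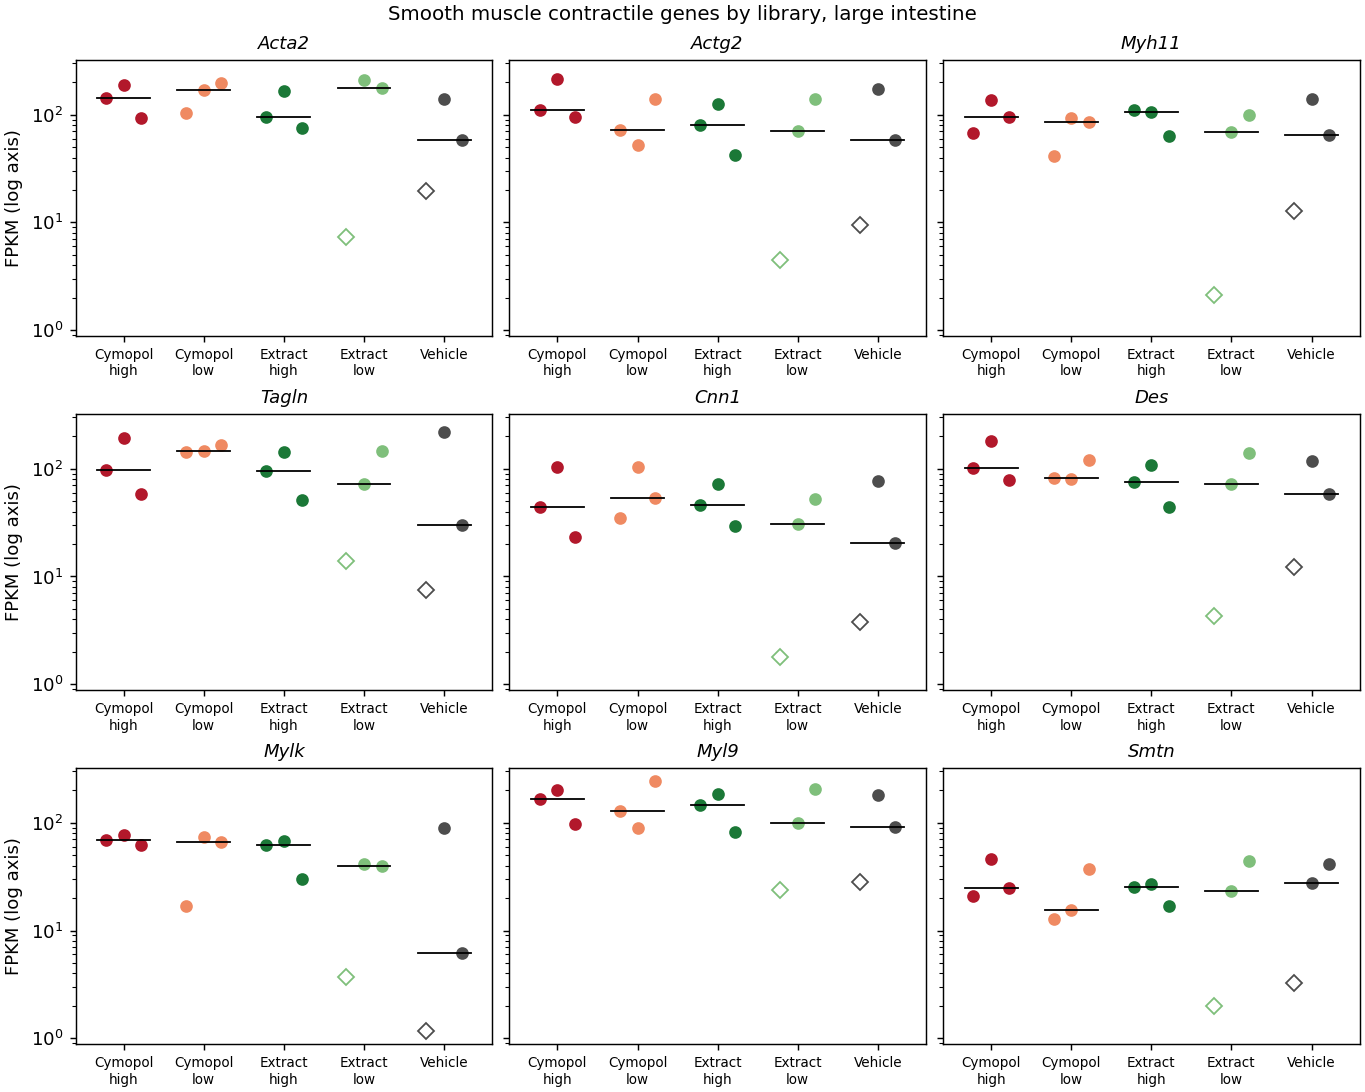
FPKM (log axis) of each of the 9 genes in the 15 libraries, by group. Points are libraries, lines are group medians, and open diamonds are extract low dose replicate 26 and vehicle replicate 2, which hold the lowest 2 values of every gene. Without them the highest value of a gene is 2.97 (Myl9) to 14.5 (Mylk) times its lowest.

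The heavy and light chains of the motor differed in spread, the highest library being 65.5 times the lowest for Myh11 and 10.3 times for Myl9. Myh11, the heavy chain of smooth muscle myosin, lies at chr16:14194535-14291372 on the minus strand. Myh11 had 67.9, 136 and 95.8 FPKM in the cymopol high dose, 41.3, 93.1 and 85.1 in the cymopol low dose, 109, 105 and 63.2 in the extract high dose, 2.11, 69.7 and 99.2 in the extract low dose, and 12.9, 138 and 64.1 in the vehicle. The means of the treated groups lay between 57.0 ± 49.8 (extract low dose) and 100.0 ± 34.3 (cymopol high dose), against 71.7 ± 63.0 in the vehicle. Of stretches of 50 bases of this transcript, 0.406% also occurred in Myh9, the non-muscle heavy chain.

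Myl9, the regulatory light chain, lies at chr2:156775420-156781658 on the plus strand. Myl9 had 166, 202 and 96.4 FPKM in the cymopol high dose, 130, 89.6 and 245 in the cymopol low dose, 147, 185 and 82.7 in the extract high dose, 23.7, 100 and 207 in the extract low dose, and 28.4, 182 and 90.6 in the vehicle. It was the member with the highest FPKM in 10 libraries and second in 4. Its spread was the narrowest of the 9 genes, with a highest value 10.3 times the lowest over all 15 libraries and 2.97 times without extract low dose replicate 26 and vehicle replicate 2.

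Serum response factor and its partner myocardin are known to act on smooth muscle genes through the CArG box. The promoter windows of RefSeq (GRCm38.p6, 250 bases before to 50 after the start) were therefore searched. The part of the box in the variation between libraries was not tested. Of the 9 genes, 6 had a window: Acta2, Cnn1, Des, Myl9, Mylk and Smtn. The windows of Mylk (chr16:34784700-34784949) and Smtn (chr11:3539293-3539542) lie inside these genes, before starts other than the outermost annotated ones. The box was searched as CC, 6 bases that are each A or T, and GG, with no mismatch allowed; boxes with a mismatch, as known for Acta2, were not counted. Such a CArG box on either strand lay in the 250 bases before the start in 1 of the 6, Myl9, and in 482 of 32851 promoters (1.47%). TATAAA on either strand lay in none of the 6 and in 4063 promoters (12.4%). The Myl9 window, chr2:156775214-156775419 on the plus strand, is shown up to the annotated start of the gene with the CArG box in capitals.
Myl9: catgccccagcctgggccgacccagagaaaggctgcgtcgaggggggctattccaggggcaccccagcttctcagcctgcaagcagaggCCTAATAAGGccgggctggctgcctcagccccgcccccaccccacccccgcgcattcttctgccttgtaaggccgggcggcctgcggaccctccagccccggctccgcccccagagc
The box begins 161 bases upstream of the RefSeq start.

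Mylk encodes the kinase that switches the motor on and lies at chr16:34745210-35002420 on the plus strand. Long and short kinases and telokin are known from separate starts of this gene, and the values here are for the whole locus. Mylk had 69.0, 77.0 and 62.7 FPKM in the cymopol high dose, 17.0, 73.1 and 66.7 in the cymopol low dose, 61.9, 67.3 and 30.3 in the extract high dose, 3.67, 41.8 and 39.7 in the extract low dose, and 1.16, 88.8 and 6.12 in the vehicle. Vehicle replicate 4 was the highest of all 15 libraries, while vehicle replicates 2 and 5 were the lowest and the third lowest. The mean was 69.6 ± 7.16 FPKM in the cymopol high dose, 52.3 ± 30.7 in the cymopol low dose, 53.1 ± 20.0 in the extract high dose, 28.4 ± 21.4 in the extract low dose and 32.0 ± 49.3 in the vehicle (SD, n = 3 each).

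Among the tested genes of the same library, Mylk stood at percentile 98.5, 97.8 and 97.8 in the cymopol high dose, 95.4, 98.2 and 97.9 in the cymopol low dose, 98.3, 97.5 and 96.0 in the extract high dose, 96.6, 97.9 and 95.9 in the extract low dose and 78.6, 97.4 and 75.7 in the vehicle. A rank within a library does not depend on its total, and on it vehicle replicates 2 and 5 stayed apart from the other 13. The ratio of Mylk to Myh11, which compares kinase with motor inside 1 library, ran from 0.400 to 1.74 in the 12 treated libraries (median 0.620), against 0.0905, 0.643 and 0.0955 in the vehicle. Vehicle replicate 4 lay inside the range of the treated libraries. The low values rested on few fragments, an estimated 25.2 in vehicle replicate 2 and 13.1 in vehicle replicate 5. In these libraries 70.1% and 47.7% of the fragments at the Mylk locus lay in assembled pieces left out of its value, against 0% to 20.3% in the other 13. With those pieces counted for both genes, the ratio of Mylk to Myh11 in estimated fragments was 0.195 to 0.691 in the 12 treated libraries, against 0.178, 0.344 and 0.140 in the vehicle. Without them it was 0.182 to 0.691 in the treated libraries, against 0.0653, 0.349 and 0.0730 in the vehicle, so the gap to the lowest treated library was much narrower with the pieces. Of the stretches of 50 bases of Mylk, 4.28% occurred in other genes, mostly the antisense E130310I04Rik.

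**Figure D2:**
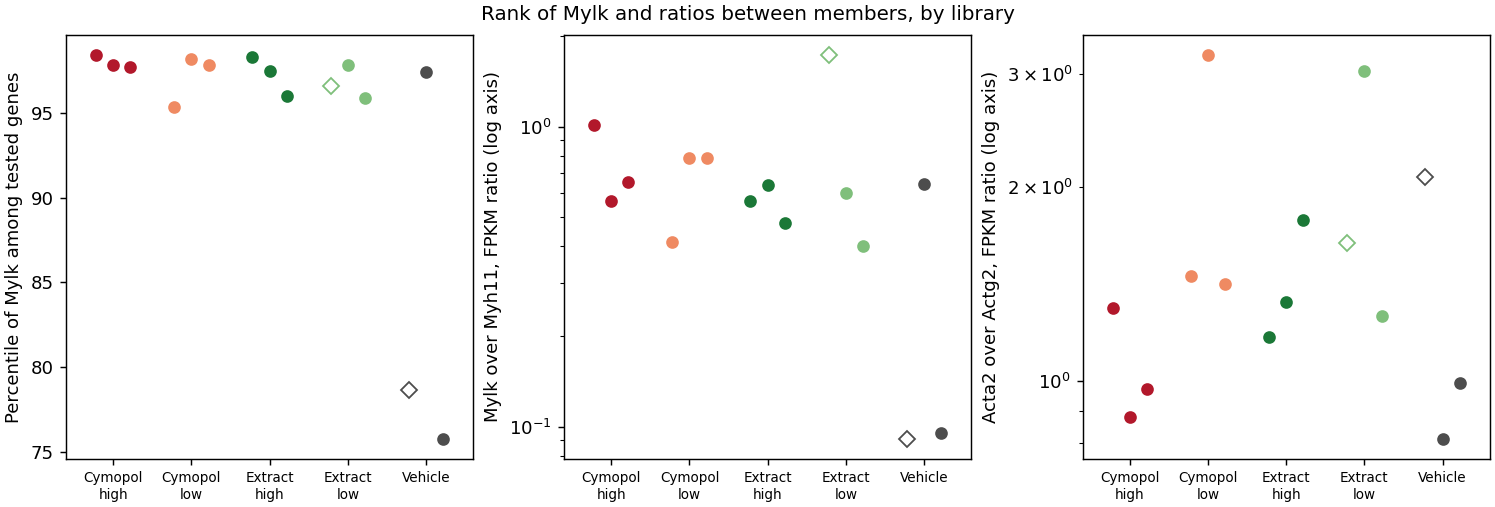
Percentile of Mylk among the genes tested (left), and FPKM ratios of Mylk to Myh11 and of Acta2 to Actg2 (log axes), in each library by group; open diamonds are extract low dose replicate 26 and vehicle replicate 2. Mylk sits at percentile 78.6 and 75.7 in vehicle replicates 2 and 5, against at least 95.4 elsewhere, and its ratio to Myh11 is under 0.1 in the same 2 libraries, where 70.1% and 47.7% of the fragments at the locus were left out of the Mylk value (0% to 20.3% elsewhere).

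Genes of the proteins that bind along the actin filament overlap antisense transcripts in 2 of 3 cases. Tagln, an early marker of smooth muscle, lies at chr9:45929619-45936058 on the minus strand and overlaps the antisense Gm48529 and the gene Pcsk7. Tagln had 97.6, 192 and 58.3 FPKM in the cymopol high dose, 143, 146 and 165 in the cymopol low dose, 94.3, 143 and 51.3 in the extract high dose, 14.0, 71.3 and 146 in the extract low dose, and 7.51, 221 and 29.9 in the vehicle. The cymopol low dose was the tightest group, 151 ± 11.6 FPKM, and the vehicle the widest, 86.0 ± 117 (SD, n = 3 each). The FPKM intervals in the cymopol low dose, 112 to 175, 124 to 168 and 149 to 180, reached farther from each value than this SD of 11.6. Of the stretches of 50 bases of Tagln, 44.5% also occurred in Gm48529, and since the counting is not stated to use strand, their reads cannot be told apart.

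Cnn1, calponin, is known to slow the myosin motor and lies at chr9:22099216-22109630 on the plus strand. Cnn1 had 43.7, 103 and 23.1 FPKM in the cymopol high dose, 34.8, 103 and 53.7 in the cymopol low dose, 46.4, 72.1 and 29.2 in the extract high dose, 1.80, 30.8 and 51.8 in the extract low dose, and 3.78, 76.5 and 20.5 in the vehicle. Its log values ran close to those of Tagln, with r = 0.934 across libraries, and r = 0.855 over the 13 libraries without extract low dose replicate 26 and vehicle replicate 2.

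Smtn, smoothelin, is known as a marker of contractile rather than growing smooth muscle, and lies at chr11:3517523-3540612 on the minus strand across the antisense Gm11946 and Gm11947. Smtn had 20.8, 46.4 and 24.6 FPKM in the cymopol high dose, 12.9, 15.6 and 37.3 in the cymopol low dose, 25.6, 26.9 and 16.8 in the extract high dose, 1.98, 23.2 and 43.8 in the extract low dose, and 3.23, 27.4 and 41.5 in the vehicle. It was the lowest of the 9 genes in 10 libraries. It was also the least well measured: its full-length value rested on an estimated 2.48 to 157 fragments a library, and a further 43.9% of the fragments at the locus lay in assembled pieces left out of that value. Of its stretches of 50 bases, 14.8% occurred in Gm11946.

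Des, desmin, the intermediate filament protein of muscle, lies at chr1:75360329-75368579 on the plus strand with the antisense Gm15179 (5.81% of stretches shared). Des had 101, 180 and 78.2 FPKM in the cymopol high dose, 82.1, 79.5 and 120 in the cymopol low dose, 76.0, 109 and 44.5 in the extract high dose, 4.33, 71.5 and 138 in the extract low dose, and 12.1, 119 and 58.3 in the vehicle. The means were 120 ± 53.7 FPKM in the cymopol high dose, 93.9 ± 22.8 in the cymopol low dose, 76.4 ± 32.1 in the extract high dose, 71.4 ± 67.0 in the extract low dose and 63.1 ± 53.6 in the vehicle (SD, n = 3 each). The vehicle mean was the lowest, and the vehicle libraries lay on both sides of the extract low dose median. The Des value of extract low dose replicate 26 rested on an estimated 28.0 fragments. A further 48.3 lay in an assembled piece, mostly in exons, that was left out of it. In cymopol low dose replicate 35 such a piece held 68.8 fragments, beside 457 in the value. Des was the member closest to the mean of the other 8 members (r = 0.983 over 15 libraries).

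None of the 9 genes passed the test in the cymopol high dose against the vehicle (limma on log2(FPKM + 1), Benjamini-Hochberg adjusted p under 0.05 over 11505 genes). Over all genes, 0.0174% were called there. All 9 log2 differences were above 0, between 0.79 (Smtn) and 2.66 (Mylk), with a median of 1.29. The median over all tested genes was itself 0.81, so the members stood 0.49 above it. For Mylk the difference was 2.66 ± 1.34 (SE), with a 95% interval of -0.06 to 5.37 and adjusted p = 0.386 by limma. Vehicle replicate 4 exceeded all 3 cymopol high dose libraries for Mylk, and no member separated the groups without overlap, while 19.5% of all genes were higher and 0.365% lower without overlap. At an unadjusted p under 0.05 there were 0 of the 9 members and 1518 of all genes (13.2%). Leaving out vehicle replicate 2 lowered the Mylk difference to 1.48 and leaving out vehicle replicate 4 gave 4.16, with adjusted p of 0.702 and 0.188 by limma. The vehicle values of Mylk in replicates 2 and 5 left out 70.1% and 47.7% of the fragments at the locus, and vehicle replicate 4 stood apart in immune markers: 7 lymphocyte genes summed to 510 FPKM there and to at most 64.2 in any other library. Their part in the Mylk difference was not tested.

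In the cymopol low dose no member passed against the vehicle either, where 0% of all genes were called; 0 of the 9 and 654 of all genes (5.68%) had an unadjusted p under 0.05. The log2 differences were all above 0, from 0.26 (Smtn) to 2.01 (Mylk), with a median of 1.04 and 0.23 over all genes. Tagln, at 1.97 ± 1.31 with a 95% interval of -0.68 to 4.62, had adjusted p = 0.923, and Mylk, at 2.01 ± 1.34, had adjusted p = 0.924 by limma. Vehicle replicate 4 held the highest Tagln value of all libraries. Groups overlapped for all 9 genes, while 3.89% of all genes were higher and 0.834% lower without overlap. Without vehicle replicate 2, Actg2, Myh11 and Smtn had differences of -0.32, -0.45 and -0.75.

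The extract high dose likewise had no member called against the vehicle, with 0.00869% of all genes called. The log2 differences were all above 0, from 0.46 (Smtn) to 2.20 (Mylk), and their median of 0.86 was close to that of all genes, 0.71. Mylk differed by 2.20 ± 1.34, with a 95% interval of -0.51 to 4.91 and adjusted p = 0.517 by limma. Here too no member was free of overlap, while 19.3% of all genes were higher and 0.452% lower without overlap. An unadjusted p under 0.05 was reached by 0 of the 9 members and 1330 of all genes (11.6%). Without vehicle replicate 2, Actg2, Myh11, Des and Smtn had differences of -0.41, -0.07, -0.21 and -0.56.

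For the extract low dose against the vehicle the members had no common direction: 4 of 9 log2 differences were above 0, from -0.84 (Myh11) to 0.85 (Mylk), with a median of -0.22 and -0.14 over all genes. None was called, with 0% of all genes called; 0 of the 9 and 451 of all genes (3.92%) had an unadjusted p under 0.05. Myh11 differed by -0.84 ± 1.33, with a 95% interval of -3.54 to 1.86 and adjusted p = 1 by limma. The 4 comparisons with the vehicle share its 3 libraries. No member was higher or lower without overlap, against 1.23% and 1.43% of all genes. Each group holds 1 of the 2 libraries lowest for every member: without extract low dose replicate 26 the Myh11 difference was 0.75, and without vehicle replicate 2 that of Myl9, 0.03 with all libraries, was -0.69.

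**Figure D3:**
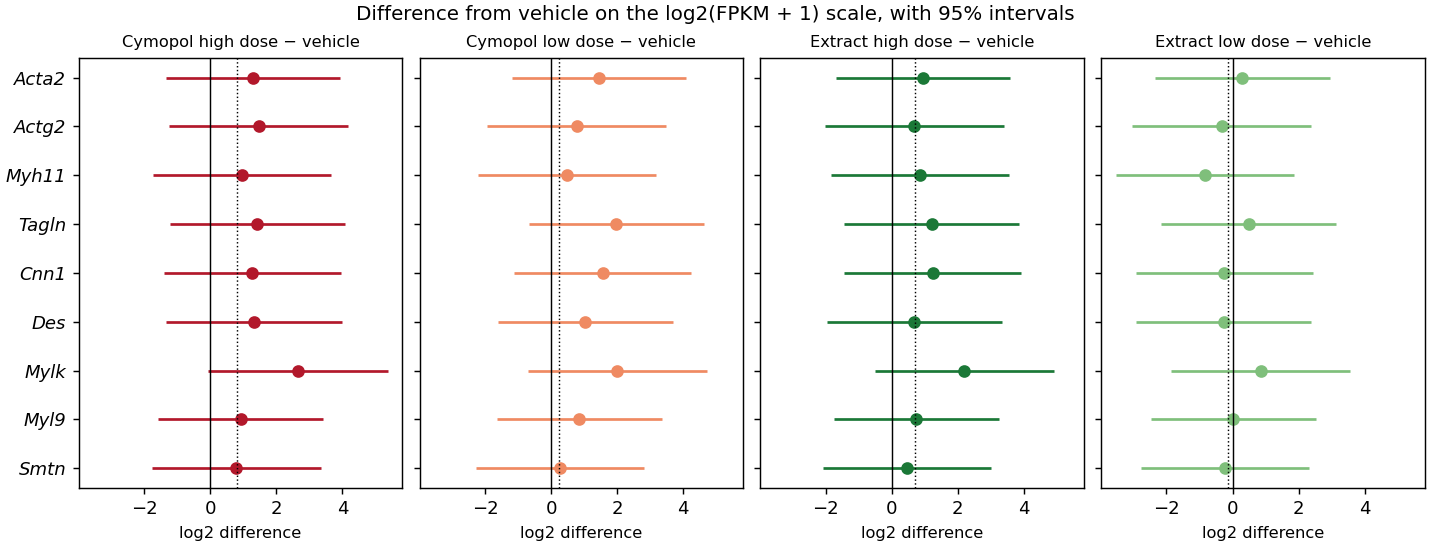
Log2 difference from the vehicle on the log2(FPKM + 1) scale for each gene (points) with 95% intervals (lines) from limma, 1 panel for each treated group; the dotted line is the median over all 11505 genes tested. Every interval includes 0, that of Mylk in the cymopol high dose by the smallest margin (-0.06 to 5.37).

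Doses of each agent were also set side by side. The cymopol high dose differed from its low dose by -0.55 (Tagln) to 0.69 (Actg2) on the log2 scale, with 6 of 9 above 0, a median of 0.28 and 0.59 over all genes. None was called (0.00869% of all genes), and the intervals of the 9 genes together spanned -3.20 to 3.41. The extract high dose differed from its low dose by 0.65 (Acta2) to 1.70 (Myh11), all 9 above 0, with a median of 0.95 and 0.89 over all genes. None was called there (0.00869% of all genes), and the intervals spanned -2.00 to 4.40. No member separated the doses without overlap, while 9.74% of all genes were higher and 0.817% lower in the cymopol high dose, and 20.9% higher and 0.0956% lower in the extract high dose. The difference between these dose differences, cymopol minus extract, tested as an interaction in limma, was farthest from 0 for Cnn1, -1.78 ± 1.87 (SE, adjusted p = 1.00).

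Between agents, cymopol and the extract were compared at their high and at their low doses, which are in different units (mmol/kg and g/kg) and do not match in amount. At the high doses the cymopol group differed from the extract group by 0.03 (Cnn1) to 0.78 (Actg2), with a median of 0.33 and 0.11 over all genes. At the low doses it differed by 0.48 (Smtn) to 1.81 (Cnn1), with a median of 1.16 and 0.39 over all genes. No member was called in either comparison (0.0174% and 0% of all genes), and the smallest unadjusted p values were 0.561 and 0.178 in limma. The intervals spanned -2.65 to 3.50 at the high doses and -2.06 to 4.49 at the low doses. No member was without overlap at either level, while 4.49% of all genes were higher and 2.4% lower with cymopol at the high doses, and 4.57% higher and 0.226% lower at the low doses. Without extract low dose replicate 26 the members' median at the low doses was 0.11 below that of all genes.

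The test of any difference among the 5 groups called 3 of 11505 genes (0.0261%) and none of the 9 members, whose smallest p was 0.278 for Mylk (limma F test, adjusted p = 0.782). Groups held 9.90% (Smtn) to 36.2% (Mylk) of the variance of each member. The median over all tested genes was 29.8%, and the groups hold 28.6% of the degrees of freedom.

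Directions depended on how libraries were scaled. The median log2 difference of all genes between the cymopol high dose and the vehicle was 0.81 in FPKM, 0.24 after median-of-ratios scaling, -0.04 after quantile normalization and 1.67 after scaling to the sum of protein-coding FPKM, a scaling added after the data were seen. In the same comparison 9, 6, 9 and 9 of the 9 members were above 0, with medians of 1.29, 0.08, 0.71 and 1.14. For the extract high dose against the vehicle the counts above 0 were 9, 3, 9 and 9, and for the extract low dose 4, 8, 8 and 9. Values on the protein-coding scale are larger than in FPKM (Acta2 in vehicle replicate 2 at 331 against 19.6), so the added 1 weighs less there. With FPKM and a pseudocount of 0.1, the cymopol high dose against the vehicle had medians of 1.77 over all genes and 1.36 over the members. The parts of scaling and of pseudocount in the 1.67 were not separated. Mylk was above 0 under each of these scalings against the vehicle in all 4 treated groups. In the cymopol high dose its unadjusted p lay between 0.0096 and 0.0446 under the 3 rescalings, with adjusted p of at least 0.211 by limma. There 1022 of 11505 genes had an unadjusted p under 0.05 after median-of-ratios scaling and 1220 after quantile normalization. Scaled to the sum of protein-coding FPKM, 9 of 11505 genes were called in this comparison at an adjusted p under 0.05 by limma, and Mylk was not among them. No scaling adds the 70.1% and 47.7% of Mylk fragments left out in vehicle replicates 2 and 5.

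As a sum, the members spanned a wider range over the libraries than as a share. Their summed FPKM was 818, 1338 and 627 in the cymopol high dose, 637, 822 and 1107 in the cymopol low dose, 735, 998 and 436 in the extract high dose, 63.4, 690 and 1044 in the extract low dose and 98.0, 1165 and 428 in the vehicle, a 21.1-fold range. As a share of the FPKM of all protein-coding genes it was 0.964, 1.01 and 0.607% in the cymopol high dose, 1.58, 0.864 and 1.02% in the cymopol low dose, 0.857, 0.789 and 0.600% in the extract high dose, 0.946, 1.04 and 1.12% in the extract low dose and 0.166, 0.80 and 0.498% in the vehicle, a 9.51-fold range. Of estimated protein-coding fragments the members held 1.27% to 4.32%, a 3.41-fold range. Extract low dose replicate 26, the library with the lowest sum, had 2.71% of its fragments in the members, above all 3 vehicle libraries (1.79, 1.76 and 1.45%).

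On both shares all libraries of the cymopol low dose and of the extract low dose lay above the vehicle. In the extract low dose the shares of protein-coding fragments were 2.71, 2.24 and 2.96%, against 2.16, 1.36 and 1.66% in the extract high dose. The cymopol groups had 2.11, 2.12 and 1.27% at the high dose and 4.32, 1.95 and 2.18% at the low dose. The rise is not particular to the members on the share of protein-coding FPKM. The 14 thin filament, cytoskeleton and dense body genes held 0.806 to 1.19% in the cymopol low dose and 0.765 to 1.05% in the extract low dose, against 0.139 to 0.653% in the vehicle. The 9 colon epithelium genes overlapped: 1.19 to 2.43% and 1.16 to 1.91%, against 0.163 to 2.95%. Muc2, also on that list, is not in these sums because extract high dose replicate 21 had no value for it. It had 500, 2146 and 1593 FPKM in the cymopol low dose and 66.4, 1542 and 2863 in the extract low dose, against 194, 536 and 838 in the vehicle. Shares of fragments were not formed for other lists. All these shares were formed after the data were seen and carry no test.

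**Figure D4:**
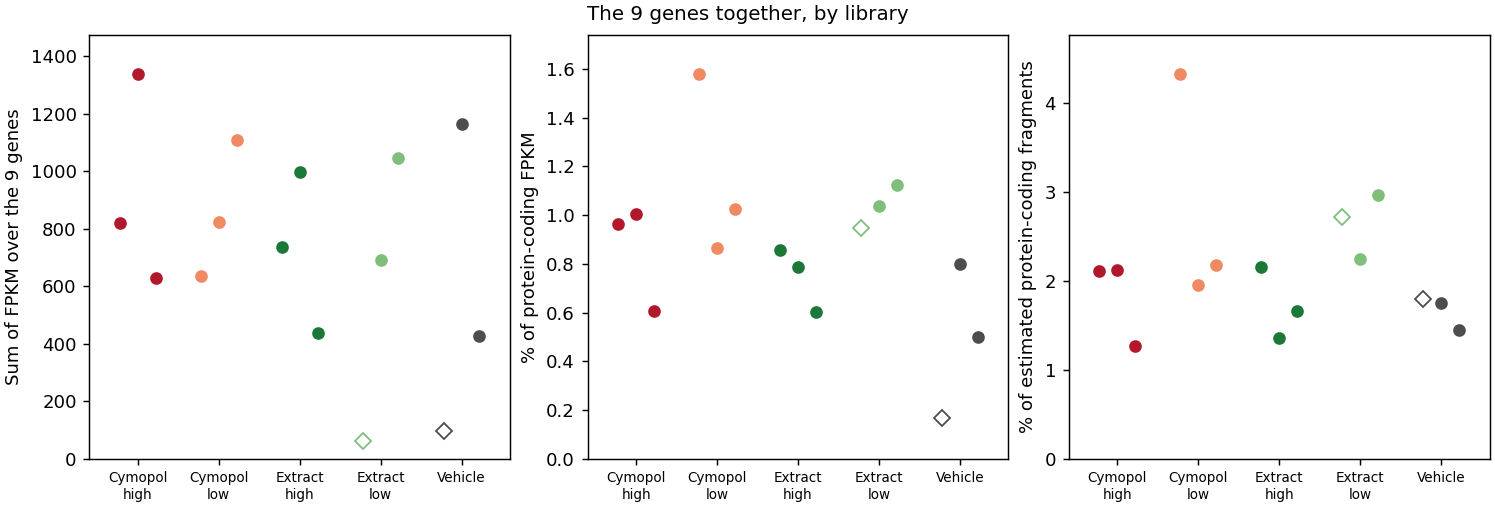
Summed FPKM of the 9 genes (left), their share of protein-coding FPKM (middle) and their share of estimated protein-coding fragments (right) in each library by group; open diamonds are extract low dose replicate 26 and vehicle replicate 2. The sum spans 63.4 to 1338 FPKM, while the share of fragments spans 1.27% to 4.32%, with the cymopol low dose and the extract low dose above the vehicle on both shares.

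Single genes on the scale of protein-coding FPKM (that sum set to 1000000 in each library) showed a few groups without overlap, none with a call. In the cymopol low dose Acta2 had 2582, 1777 and 1809, against 331, 962 and 677 in the vehicle. Tagln had 3560, 1535 and 1523 there, against 127, 1514 and 348 in the vehicle, and Des had 2038, 836 and 1112, against 205, 817 and 679. These 3 of 9 genes were higher without overlap, compared with 6.38% of all genes. Acta2 in cymopol low dose replicate 34 rested on an estimated 38.5 fragments, and Tagln in replicate 33 on 82.7. The gaps of Tagln (1523 against 1514) and Des (836 against 817) were small beside the FPKM intervals of these low dose values. Those ran over 149 to 180 for Tagln in replicate 35 and 66.4 to 92.6 for Des in replicate 34. Acta2 alone was higher without overlap between the extract high dose and the vehicle (22.9% of all genes), and Acta2 and Myl9 in the extract low dose (4.84% of all genes). Between cymopol doses, Acta2 and Tagln were lower without overlap at the high dose (2.12% of all genes). On this scale the adjusted p was 0.444 for Acta2 and 0.395 for Tagln in the cymopol low dose against the vehicle, by limma.

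The members varied together across the libraries, also within groups. Across the 15 libraries the 36 pairs of members had Pearson r of 0.713 to 0.985, with a median of 0.895, as a description of libraries that share their depth and yield. The median r of a member with all tested genes was 0.450. Using deviations from the group means, the median over the 36 pairs was 0.911, and that with all genes was 0.460. Both of the lowest libraries were still in these deviations. Without extract low dose replicate 26 and vehicle replicate 2 the median was 0.612, with a range of 0.01 to 0.937, and that with all genes was 0.236. Des and Actg2 stayed closest (r = 0.937), while Smtn had the lowest values, 0.01 with Mylk and 0.06 with Tagln. After median-of-ratios scaling the median over pairs was 0.444 in the 15 libraries, and with all genes -0.05.

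**Figure D5:**
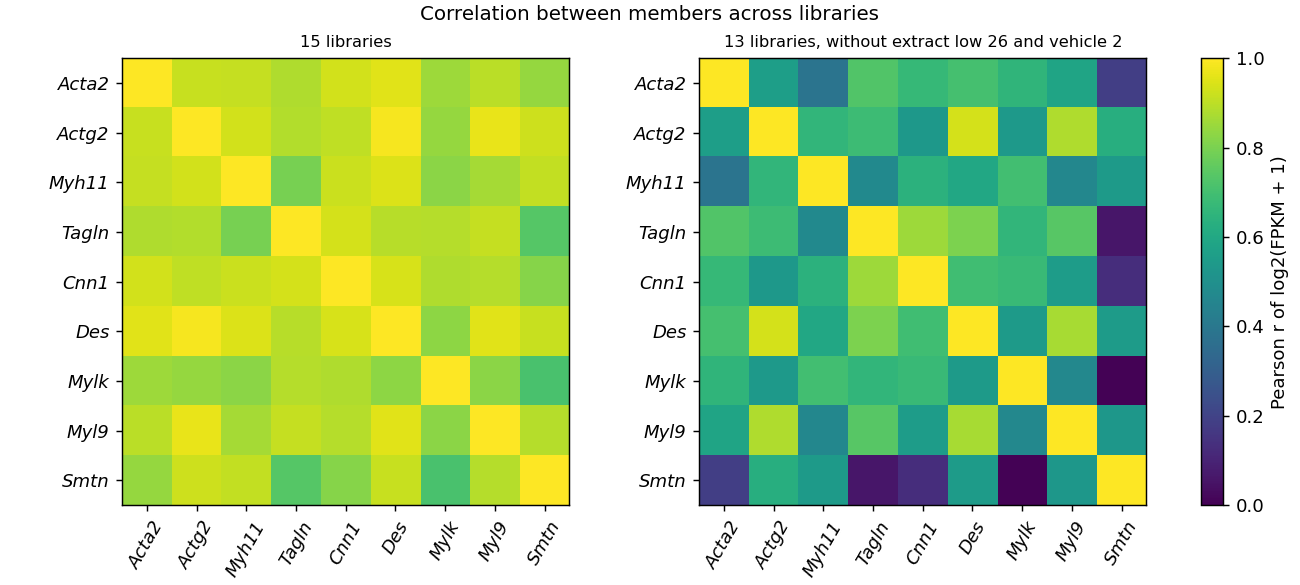
Pearson r between the log2(FPKM + 1) values of each pair of the 9 genes, over 15 libraries (left) and over the 13 without extract low dose replicate 26 and vehicle replicate 2 (right). The colour scale runs over 0 to 1; Des with Actg2 stays at 0.937 on the right, while Smtn with Mylk is at 0.01.

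Of 10655 other protein-coding genes, the 6 whose log values lay closest to the mean of the standardised members were Aldh2 (r = 0.980), Csrp1 (0.972), Palld (0.970), 2610507B11Rik (0.967), Rps4x (0.964) and Kidins220 (0.961) over 15 libraries. Csrp1 and Palld encode cytoskeletal proteins known from smooth muscle, Aldh2 a mitochondrial aldehyde dehydrogenase and Rps4x a ribosomal protein. Over the 13 libraries without the lowest pair, the 6 values of r were 0.859, 0.883, 0.836, 0.784, 0.833 and 0.901.

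The rest of the contractile apparatus gave no call either. Of 14 thin filament, cytoskeleton and dense body genes, all tested, none was called in any of the 8 comparisons. Their median log2 difference from the vehicle was 1.40 in the cymopol high dose, 0.85 in the cymopol low dose, 1.00 in the extract high dose and 0.02 in the extract low dose, beside medians of all genes of 0.81, 0.23, 0.71 and -0.14. The most abundant were Tpm1 and Tpm2, the tropomyosins that lie along actin, with medians of 135 and 114 FPKM over 15 libraries, Myl6, the essential light chain, with 109, and Csrp1 with 89.9. Of 19 signalling genes around the kinase, all tested, none was called, and the medians were 1.08, 0.12, 0.75 and -0.28 in the same order. They included Ppp1r14a, an inhibitor of the myosin phosphatase (a median of 29.3 FPKM over the 15 libraries), Atp2a2, the calcium pump of the sarcoplasmic reticulum (19.7), and Ppp1r12a, the targeting subunit of that phosphatase (18.4).

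Among 10 transcription factors listed for smooth muscle, 8 were tested and none was called; Foxf1 was not analysed here and Heyl was under the filter. Klf4, also an epithelial factor in the colon, had the highest median (64.6 FPKM), followed by Srf (7.64), Mrtfa (6.08) and Mrtfb (2.99). The pacemaker and relay cells of the muscle layers were read from 5 markers of interstitial cells of Cajal, among them Ano1 (9.38 FPKM), Thbs4 (2.63), Kit (2.42) and Gucy1a1 (1.69), with none called. Of 10 enteric neuron genes 8 were tested and of 5 glial genes 3, with none called.

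Markers of the other cell types of the gut wall also had their low ends in the extract low dose and the vehicle. The summed FPKM of 9 colon epithelium genes ran over 1701 to 2272 in the cymopol high dose, 478 to 2628 in the cymopol low dose, 1290 to 2208 in the extract high dose, 77.7 to 1533 in the extract low dose and 96.3 to 2534 in the vehicle. Their median log2 difference in the cymopol high dose against the vehicle was 2.18, above the 1.29 of the smooth muscle genes. Muc2 was in neither the sums nor this median. Sums of 8 fibroblast genes ran over 117 to 290, 152 to 204, 53.6 to 124, 12.8 to 142 and 22.7 to 254 FPKM in the same order of groups. For 6 genes of cytoplasmic actins and myosins, which every cell uses, the medians against the vehicle were 1.59, 1.06, 1.20 and 0.30 in the cymopol high, cymopol low, extract high and extract low doses. Sums of 9 skeletal muscle genes were at most 21.8 FPKM in any library. Endothelial, pericyte, adipocyte and lymphocyte lists had no called gene in any of the 8 comparisons. Vehicle replicate 4 held the highest lymphocyte sum, with Cd74, the invariant chain of antigen-presenting cells, at 325 FPKM against at most 54.0 elsewhere, and the highest endothelial sum (6 genes), 92.4 FPKM against at most 56.3. The part of these cell types and of library yield in the members' values was not tested.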

How the data were processed

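RNA of the large intestine was sequenced after ribosomal RNA depletion, from 90 ng of total RNA per the labels' protocols. Per the submitters' processing notes, STAR 2.4.0j was used for alignment and GRCm38.p4 as the genome. The authors deposited 1 table per library with FPKM and its lower and upper bound, and per the file headers these are Cufflinks gene tables. The quantifier's settings and any use of strand are unknown from the labels and headers.

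Rows carry Ensembl identifiers or are loci assembled separately in each library. An assembled locus was assigned to a gene without its own row when both were mutual best matches and overlapped over at least 0.5 of their combined extent. Of the 135 values of the 9 genes, 39 came from Ensembl rows and 96 from assembled loci, with a shared span of at least 0.982. All values of Actg2, Myh11, Des, Mylk and Smtn came from assembled loci. Fragment estimates come from the interval around each FPKM and are approximate.

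Values were analysed as log2(FPKM + 1). The genes fitted had a value in every one of the 15 libraries and at least 1 FPKM in at least 3, and the fit used limma 3.58.1 in R 4.3.3 (1 mean per group, intensity trend), in 8 comparisons, an interaction and a test over 5 groups, with two-sided tests and Benjamini-Hochberg adjustment. Exact tests of 3 against 3 cannot go below p = 0.1. The fit was tested on simulated data. Descriptions used Python 3.11.15 with pandas 2.3.3. Alternatives were pseudocount, filter, scaling, weights, trend, groups in the fit and left-out libraries.

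The members and gene lists were chosen with earlier results of these data known. All 9 members are named, and from other lists the called genes and up to 4 with the highest median FPKM, plus the 6 genes closest to the members' mean. Myh2, the comparison of Mylk with and without left-out pieces, Foxf1 and Heyl, were chosen after their values were seen. Positions and transcripts are from GENCODE M21, and promoters those of RefSeq on GRCm38.p6.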

Additional observations from a re-analysis of the deposited data

How the results depend on the processing

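In none of the 24 alternatives that hold the members was any of the 9 genes called in any of the 8 comparisons or in the test over 5 groups. The lowest adjusted p over the 72 member tests of an alternative was between 0.188 (without vehicle replicate 4) and 0.575 (without vehicle replicate 2) by limma. With Ensembl identifiers only, no member had a value in all 15 libraries, so that fit gave none. No paired analysis was possible because the groups share no replicate numbers. The scaling to protein-coding FPKM and the fit without both low libraries were added after the data were seen.

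The members' median minus that of all genes was above 0 in all 24 alternatives for the cymopol low dose against the vehicle (0.19 to 1.14) and the cymopol against the extract high dose (0.08 to 0.38). Alternatives that leave out a library of a group not compared cannot change this value. It took both signs for the other 6 comparisons, among them the cymopol high dose (-0.53 to 1.06) and the extract high dose (-0.85 to 0.67) against the vehicle. For the extract high against the low dose, 0.06 as reported, it was -1.04 with median-of-ratios scaling and -1.63 scaled to protein-coding FPKM. Each was farther from the reported value than the pooled SD of replicates (1.06). The added 1 weighs less on the protein-coding scale. With a pseudocount of 0.1 in FPKM, the medians of this comparison were 1.02 over the members and 1.85 over all genes. The cause was not tested.

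Of 864 log2 differences of single members from the vehicle under an alternative, 796 kept their sign. Many of them could not change it. Leaving out a library of a group not compared leaves a difference as it was. So does a change of the filter, of the trend or of the groups in the fit. The count is therefore no measure of stability. With median-of-ratios scaling, the sign differed from the reported one for Myh11 -0.29, Myl9 -0.34 and Smtn -0.36 in the cymopol high dose, for Myh11 -0.13 and Smtn -0.28 in the cymopol low dose, for Acta2 -0.13, Actg2 -0.36, Myh11 -0.20, Des -0.38, Myl9 -0.34 and Smtn -0.51 in the extract high dose, for Actg2 0.32, Cnn1 0.33, Des 0.36 and Smtn 0.39 in the extract low dose. Without both vehicle replicate 2 and extract low dose replicate 26, the sign differed from the reported one for Smtn -0.22 in the cymopol high dose, for Actg2 -0.32, Myh11 -0.45 and Smtn -0.75 in the cymopol low dose, for Actg2 -0.41, Myh11 -0.066, Des -0.21 and Smtn -0.56 in the extract high dose, for Cnn1 0.0045 and Des 0.25 in the extract low dose. With array weights, the sign differed from the reported one for Smtn -0.023 in the cymopol low dose, for Actg2 0.45, Myh11 0.069, Cnn1 0.57, Des 0.46 and Smtn 0.026 in the extract low dose. With quantile normalization, the sign differed from the reported one for Actg2 0.34, Cnn1 0.49, Des 0.53 and Smtn 0.53 in the extract low dose. Scaled to the sum of protein-coding FPKM, the sign differed from the reported one for Actg2 1.01, Myh11 0.40, Cnn1 1.03, Des 1.06 and Smtn 1.09 in the extract low dose. Leaving out 1 library at a time gave log2 differences of Smtn -0.22 to 1.44 in the cymopol high dose, of Actg2 -0.32 to 1.71, Myh11 -0.45 to 1.22 and Smtn -0.75 to 0.92 in the cymopol low dose, of Actg2 -0.41 to 1.62, Myh11 -0.066 to 1.60, Des -0.21 to 1.38 and Smtn -0.56 to 1.11 in the extract high dose, of Acta2 -0.53 to 1.81, Actg2 -1.42 to 1.07, Myh11 -1.76 to 0.75, Tagln -0.61 to 1.74, Cnn1 -1.29 to 1.04, Des -1.21 to 1.15, Mylk -0.33 to 2.36, Myl9 -0.69 to 0.88 and Smtn -1.23 to 0.93 in the extract low dose. None of these values passed the test in any setting. Depth limits Smtn most, with an estimated median of 53.5 fragments a library, the lowest of the 9 genes, and as few as 2.48. Mylk had a median of 390 but 13.1 in vehicle replicate 5, and intervals that reach over 2 log2 units either way leave large differences undetectable.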

Other observations

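Some ratios between members, each formed inside 1 library, set single libraries apart. The light chain Myl9 over the heavy chain Myh11 was 11.2 in extract low dose replicate 26 and between 0.962 and 3.14 in the other 11 treated libraries, against 1.31 to 2.21 in the vehicle. The kinase Mylk over its substrate Myl9 ran over 0.131 to 0.816 in the 12 treated libraries, against 0.0410 to 0.489 in the vehicle, where 2 libraries left out 70.1% and 47.7% of the Mylk fragments. Calponin over transgelin ran over 0.128 to 0.706 in the treated libraries and 0.347 to 0.687 in the vehicle, and desmin over Acta2 over 0.338 to 0.964 and 0.620 to 1.00. These ratios were chosen after the data were seen, and the libraries' depth was not equal.

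Some assembled pieces inside the 9 genes were left out of their values. Those not lying mostly in exons held 18.5% of the estimated fragments at these loci in vehicle replicate 2. In the other 14 libraries they held 0% to 8.98%. Left-out pieces lying mostly in exons are not in these shares. Such pieces held an estimated 48.3 fragments in extract low dose replicate 26, where the share is 0%. The pieces counted in the shares were chiefly in Myh11 (57 pieces over all libraries), Mylk (51), Smtn (24) and Actg2 (22), with none in Myl9.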
